A study of Mus musculus with 4 samples.

Results

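The genes described here are the zinc-dependent histone deacetylases of the mouse other than *Hdac3*, namely *Hdac1*, *Hdac2*, *Hdac4*, *Hdac5*, *Hdac6*, *Hdac7*, *Hdac8*, *Hdac9*, *Hdac10* and *Hdac11*. They were chosen by symbol as the remaining members of the enzyme family whose member *Hdac3* was deleted, and all 10 were found among the 20642 genes of the deposited table. Nascent transcription was measured by PRO-seq (precision run-on sequencing), in which engaged RNA polymerases add biotin-labelled nucleotides in isolated nuclei and the labelled RNA is sequenced. There were 4 libraries of whole liver from C57BL/6 mice at P14 (day 14 after birth), each made from 20000000 nuclei pooled from several mice. The 2 WT libraries (WT1, WT2) came from *Alb-Cre*+ *Hdac3* +/+ mice. The 2 KO libraries (KO1, KO2) came from *Alb-Cre*+ mice with *Hdac3* fl/fl or fl/-, and both kinds of KO animal count as 1 group. Both genotypes thus carry the Cre transgene, which the albumin promoter drives in hepatocytes. Cre acts on the fl allele, whereas the - allele of fl/- animals is a null allele in every cell, also outside hepatocytes.

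Zinc-dependent histone deacetylases remove acetyl groups from histone tails and from other proteins. Class I enzymes (*Hdac1*, *Hdac2*, *Hdac8* and the deleted *Hdac3*) are mostly nuclear, and HDAC1 and HDAC2 work in pairs inside the Sin3, NuRD, CoREST and MiDAC complexes, whereas HDAC3 works with the corepressors NCoR and SMRT. Class IIa enzymes (*Hdac4*, *Hdac5*, *Hdac7*, *Hdac9*) have little catalytic activity of their own, bind MEF2 transcription factors, leave the nucleus when kinases phosphorylate them, and can bring HDAC3 with its corepressors to DNA. In liver they are known for their part in the fasting response. Class IIb enzymes (*Hdac6*, *Hdac10*) act largely in the cytoplasm, and class IV holds *Hdac11* alone. The comparison asks how the transcription of each of these genes differed between livers with and without *Hdac3*.

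The table gives 2 values per gene and library. Around the annotated start, where paused polymerases gather, a window of 50 bp was moved over 500 bp on either side, and the promoter-proximal value counts the reads of its fullest position. The gene body value is the number of reads from 1 kb past the start to the end of the annotated transcript, and reflects elongating polymerases. The pausing index is the promoter-proximal density divided by the gene body density. All values are normalized reads, that is, whole reads multiplied by 1 factor per library (1 to 1.52). The 4 libraries hold 16628518 to 26190040 reads on genes. The promoter-proximal share of these was 10.3% and 9.38% in WT and 13.6% and 17.0% in KO. The median log2 fold change of the 12705 active genes (promoter-proximal mean above 0 and gene body mean over 4 reads per kb) was accordingly 0.56 for promoter-proximal values, -0.09 for gene bodies and 0.61 for the pausing index, so each gene is read against these medians. All 10 deacetylase genes were active. *Hdac7* passed the promoter-proximal criterion on 4 raw reads in all, and no fold is given for it there. A gene was called when limma's Benjamini-Hochberg adjusted p over all active genes was under 0.05 and its log2 fold change was beyond 0.6. The libraries are bulk liver, so fewer cells of a type and less nascent RNA per cell cannot be told apart.

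Before the values, the starts need a description, because the promoter-proximal window depends on which start was counted. Positions are in mm10 (GRCm38) and sequences are RefSeq's for GRCm38.p6, 5′ to 3′ on the strand of the gene, ending just before the named start and cut where they would enter another exon. RefSeq promoters were found for 8 of the 10 genes, and *Hdac1* and *Hdac10* were not among them. RefSeq lists further starts for *Hdac7* and *Hdac9*, and for *Hdac4* a start other than the counted one. The promoter-proximal values of these 3 genes were the lowest of the family. They are shown with *Hdac11*, whose window held the most reads. Capitals mark 4 motifs, searched on either strand. Of 32851 RefSeq promoters of 250 bases before the start, 32.7% hold the GC box with the letters GGGCGG somewhere in this stretch. The box named CCAAT is held by 33.9%, the ETS core spelled CCGGAA by 12.0% and the TATA box spelled TATAAA by 12.4%. The motifs do not overlap one another in the stretches printed here. The median number of CpG dinucleotides in these 250 bases is 6, with quartiles at 2 and 16.
*Hdac7*, counted start, chr15:97844503-97844752, 6 CpG, no motif of the 4: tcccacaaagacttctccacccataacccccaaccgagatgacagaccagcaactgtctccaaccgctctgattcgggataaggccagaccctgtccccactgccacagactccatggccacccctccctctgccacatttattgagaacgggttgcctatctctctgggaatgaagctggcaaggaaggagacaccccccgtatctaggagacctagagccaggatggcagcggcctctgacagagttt
*Hdac7*, start inside the counted gene body, chr15:97831768-97832017, 21 CpG: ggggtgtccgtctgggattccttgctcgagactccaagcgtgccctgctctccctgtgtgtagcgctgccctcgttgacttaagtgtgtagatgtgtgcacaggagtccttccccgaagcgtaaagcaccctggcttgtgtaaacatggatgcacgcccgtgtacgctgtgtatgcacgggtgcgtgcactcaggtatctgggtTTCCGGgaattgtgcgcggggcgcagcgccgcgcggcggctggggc
*Hdac4*, start upstream of the counted one, chr1:92180342-92180591, 23 CpG: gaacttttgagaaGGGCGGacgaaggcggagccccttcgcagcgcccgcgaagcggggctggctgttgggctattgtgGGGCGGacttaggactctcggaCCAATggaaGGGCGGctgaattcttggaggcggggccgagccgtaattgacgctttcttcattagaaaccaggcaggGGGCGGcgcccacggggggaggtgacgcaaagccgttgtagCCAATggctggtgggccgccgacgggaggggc
*Hdac9*, counted start, chr12:34528890-34529139, 2 CpG, no motif of the 4: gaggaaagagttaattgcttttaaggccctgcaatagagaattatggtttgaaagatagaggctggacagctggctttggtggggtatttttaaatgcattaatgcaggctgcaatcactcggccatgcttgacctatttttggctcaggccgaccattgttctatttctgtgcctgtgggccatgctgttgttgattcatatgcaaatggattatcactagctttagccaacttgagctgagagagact
*Hdac9*, start far upstream, chr12:34917096-34917345, 0 CpG: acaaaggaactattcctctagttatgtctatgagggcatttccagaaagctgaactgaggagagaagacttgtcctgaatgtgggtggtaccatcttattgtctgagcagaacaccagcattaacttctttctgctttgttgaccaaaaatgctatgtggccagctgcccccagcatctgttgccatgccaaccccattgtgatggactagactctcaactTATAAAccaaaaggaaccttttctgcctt
*Hdac11*, counted start, chr6:91156565-91156664, shortened to 100 bases: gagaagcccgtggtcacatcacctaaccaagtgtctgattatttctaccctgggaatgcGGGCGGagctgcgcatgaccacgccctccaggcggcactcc

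The counted *Hdac7* transcript (NM_001204278) runs on the minus strand of chromosome 15 from 97844502 to 97792666. RefSeq lists further starts 12.7, 13.0 and 29.6 kb inside it, so polymerases that begin there are counted as gene body. The start 12.7 kb inside has a CpG-rich promoter with an ETS core, whereas the counted start has a CpG count at the median of all promoters and held almost no reads. For *Hdac4* (NM_207225) the deposited gene body length, 214645 bp, differs by 8 bp from that of the transcript that starts at 92148393 on chromosome 1 and by 35918 bp from that of the transcript with the same RefSeq identifier. Its window was therefore placed 31.9 kb downstream of the CpG-rich start, which carries GC and CCAAT boxes. The counted *Hdac9* transcript (NM_024124) runs from 34528874 to 34371497 on the minus strand of chromosome 12. A second start with a TATA box lies 388 kb upstream, and the RefSeq gene runs on to 34047580 at its other end. Gene body values of *Hdac9* thus describe only the inner part of the gene. Promoter-proximal values and pausing indices of these 3 genes are given below as deposited, but they describe only the counted starts.

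**Figure D1:**
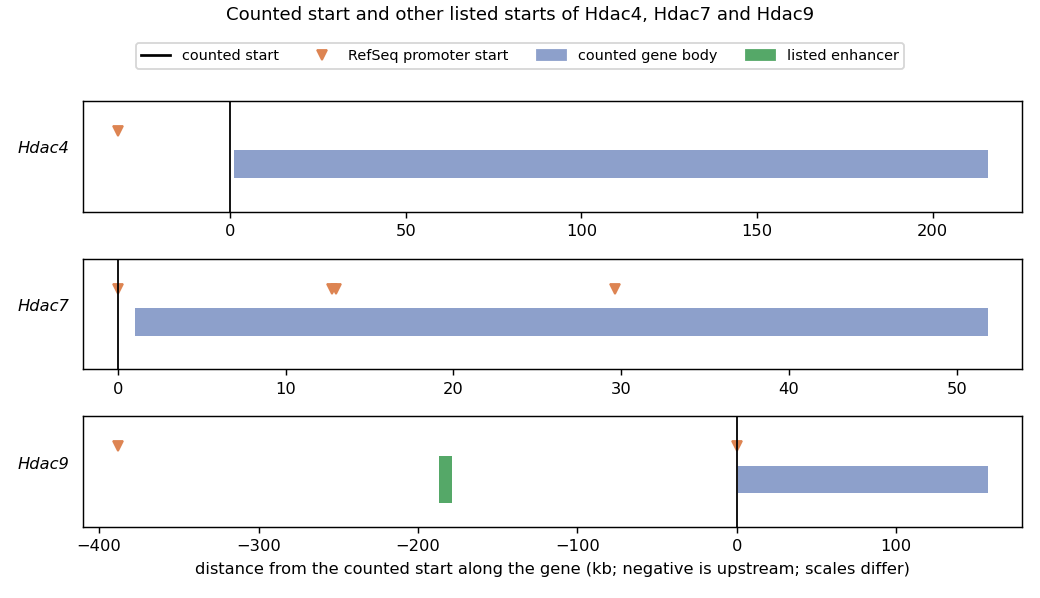
Map of *Hdac4*, *Hdac7* and *Hdac9* along the gene, in kb from the counted start (black line), with RefSeq promoter starts as triangles, the counted gene body as a blue bar and a listed enhancer as a green bar. The horizontal scale differs between the 3 genes. The *Hdac4* start lies 31.9 kb upstream, 3 further *Hdac7* starts lie inside the counted gene body, and the second *Hdac9* start lies 388 kb upstream.

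The targeted gene was read in every library. *Hdac3* gene body values were 665 and 648 normalized reads in WT and 609 and 582 in KO (log2 fold change -0.14, SE 0.13, adjusted p = 0.413). Both KO values were below both WT values by a small margin. In its promoter-proximal window the values were 130, 108.0, 112 and 211 in WT1, WT2, KO1 and KO2, and overlapped. Nascent reads over the gene body do not show whether a floxed part of the gene is still present, so these values do not check the genotype labels. Reads over the *Hdac3* locus were still present in the KO libraries, which are bulk liver and also hold cells other than hepatocytes. The end of *Fchsd1* lies 2415 bp upstream on the same strand. Its gene body values were 97.5 and 113 in WT and 160 and 158 in KO. Whether reads from those cells or past that end enter the *Hdac3* values was not tested.

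Levels were then ordered within each genotype by gene body density, in normalized reads per kb, which allows genes of different length to be compared. In WT liver *Hdac5* was transcribed most, at 107 ± 8.72 reads per kb (SD, n = 2), followed by *Hdac11* at 80.5 ± 3.33, *Hdac7* at 58.5 ± 9.78 and *Hdac1* at 52.1 ± 5.89. *Hdac10* (41.1 ± 4.95) lay close to *Hdac3* itself (38.6 ± 0.725) and to the median of all active genes (37.7). *Hdac2* (28.9 ± 1.22), *Hdac4* (24.2 ± 1.17), *Hdac6* (17.3 ± 0.622), *Hdac9* (12.7 ± 1.15) and *Hdac8* (12.3 ± 1.07) lay below it. The ranges of *Hdac7* and *Hdac1*, of *Hdac10* and *Hdac3*, and of *Hdac9* and *Hdac8* overlapped, so the order within these pairs is not resolved. Every other neighbour was separated in both libraries.

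In KO liver the order changed at *Hdac7*, *Hdac9* and *Hdac11*. *Hdac5* remained first at 128 ± 11.3 reads per kb and *Hdac7* was now second at 106 ± 4.07. *Hdac11* moved from second to the fifth place at 41.2 ± 1.34. *Hdac9*, at 19.4 ± 2.69, overlapped *Hdac4* at 20.8 ± 0.528 and stood above *Hdac6* at 11.8 ± 0.873. *Hdac8* was last in both genotypes, at 8.70 ± 1.38 in KO.

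**Figure D2:**
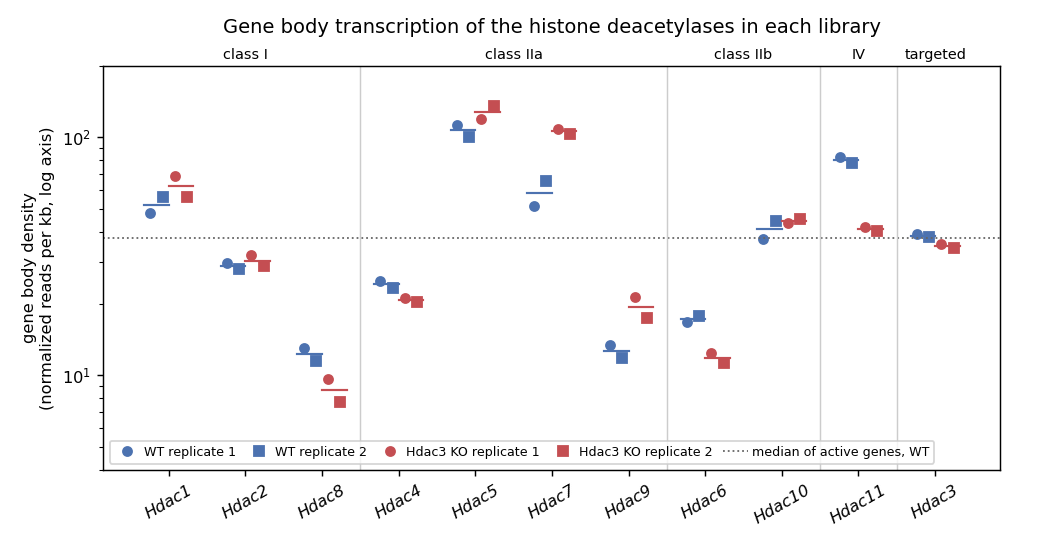
Gene body density (normalized reads per kb, log axis) of the 10 deacetylase genes and *Hdac3*, by class, in the 2 WT (blue) and 2 *Hdac3* KO (red) libraries, circles for replicate 1 and squares for replicate 2. Short lines are group means and the dotted line is the WT median of active genes (37.7). *Hdac7* and *Hdac9* lie higher and *Hdac11* lower in both KO libraries, and the other genes lie closer together.

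In gene bodies 2 of the 10 genes were called up (*Hdac7* and *Hdac9*) and 1 was called down (*Hdac11*), while 10.4% of active genes were called up and 11.4% down. These shares, of 10 genes, are close to the background. Values of the 2 groups did not overlap for 7 of the 10 genes, 3 higher and 4 lower in KO, where 27.6% of active genes were higher and 42.8% lower in both KO libraries. The median log2 fold change of the family was 0.09. With 2 libraries per group, an exact permutation test of a single gene cannot go below p = 0.333, so each call rests on the spread that limma shares over all genes.

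Of the class IIa genes, *Hdac7* changed most. *Hdac7* encodes an enzyme known for its part in endothelial cells and in T cells. Its gene body held 2621 and 3324 normalized reads in WT and 5531 and 5238 in KO. Both KO libraries exceeded both WT libraries, at 1.82-fold (log2 fold change 0.87, SE 0.12, adjusted p = 2.45e-06). The difference was 0.70 to 1.04 on the log2 scale when single libraries were left out. *Hdac7* was not called when the test ran without a filter on activity (adjusted p = 0.0851), and it dropped out when genes had to be active in every library, because WT1 had no read in its window. Its promoter-proximal window held 0, 1, 2 and 1 raw reads in WT1, WT2, KO1 and KO2, all at or under the limit that a count of 0 allows (3 reads), so neither a fold nor a pausing index is meaningful at the counted start.

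*Hdac9* gene body values were 2107 and 1852 in WT and 3328 and 2733 in KO, without overlap (log2 fold change 0.61, SE 0.12, adjusted p = 2.14e-04). This is just past the fold threshold. Without WT2 the log2 fold change was 0.52 and without KO1 it was 0.47, and in both cases *Hdac9* was no longer called, as also without a filter on activity (adjusted p = 0.123). In the promoter-proximal window *Hdac9* had 8.03, 18, 11.7 and 10.6 normalized reads, with the KO values inside the WT range (log2 fold change -0.11, SE 0.46). The sign of that difference turned positive without WT2 (0.43).

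The other pair of class IIa genes gave no call. *Hdac5*, the family's most transcribed member, had gene body values of 3777 and 3365 in WT and 3998 and 4531 in KO (log2 fold change 0.26, SE 0.11, adjusted p = 0.0738). Its promoter-proximal values were 149 and 136 in WT and 206 and 261 in KO (0.70, SE 0.32, adjusted p = 0.0838), which exceeds the median of active genes by 0.14. Both regions of *Hdac5* were higher in each KO library without passing the test. *Hdac4* had 5366 and 5012 gene body reads in WT and 4547 and 4386 in KO (log2 fold change -0.22, SE 0.11, adjusted p = 0.114). Both KO libraries of *Hdac4* were lower, and the window at its internal start held 10.3 and 9 normalized reads in WT against 7.43 and 6.07 in KO, which is too few to resolve a difference. Summed over the 4 class IIa genes, gene body reads were 13870 and 13553 in WT and 17404 and 16888 in KO.

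Endothelial and stellate cell markers moved in the same direction as *Hdac7* and *Hdac9*. Of 9 active endothelial markers 7 were called up in gene bodies and none down, with a median log2 fold change of 0.79 and summed values of 70345 and 76419 in WT against 135509 and 121597 in KO. All 9 were also called up in the promoter-proximal region. All 8 stellate cell markers were called up (median 1.44, sums of 9748 and 11062 against 22388 and 20556). Kupffer and myeloid markers gave 0 calls of 8 in gene bodies (limma, 1 at an unadjusted p under 0.05, 0 by edgeR and by DESeq2), and the 5 lymphoid markers gave 1 up and 1 down. Of the rarer cells, all 4 active erythroid markers were called down (median -1.36). Of 3 active cholangiocyte markers 1 was called down, *Sox9* (log2 fold change -1.33). *Krt19* (0.83) and *Spp1* (0.44) were higher in KO without a call, and the median of the list was 0.44. The hepatocyte markers went the other way, with 5 of 8 called down, a median of -1.14 and sums of 333934 and 329560 against 162693 and 157475. No defining marker of these lists among the active genes was at 0, since *Alb*, *Pecam1*, *Pdgfrb* and *Csf1r* were all read in every library. How far a change in the mix of cells takes part in the values of *Hdac7*, *Hdac9* or *Hdac11* was not tested.

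*Hdac11*, the class IV enzyme, removes long fatty acyl groups from proteins more readily than acetyl groups. It was the member with the smallest adjusted p. Its gene body held 1397 and 1318 normalized reads in WT and 711 and 679 in KO. The replicates of each genotype lay close together and the groups were far apart, at 0.512-fold in KO (log2 fold change -0.97, SE 0.12, adjusted p = 7.69e-07). *Hdac11* was called down in gene bodies in every alternative, leave-one-out values running from -1.01 to -0.92. Its promoter-proximal window was the strongest of the family, at 727 and 934 normalized reads in WT, more than in 96.5% of active genes. In KO it held 600.4 and 689 (log2 fold change -0.36, SE 0.29, adjusted p = 0.322). Both KO values were lower, which holds for 6.72% of active genes, and the log2 fold change differs by -0.92 from the median of active genes. When each region was scaled on its own genes (median of ratios), the promoter-proximal difference was -0.93 and was called (adjusted p = 0.0042), as for 7.41% of active genes called down under this scaling.

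The 3 genes whose 8 library values were most like those of *Hdac11*, among the 8751 active genes that averaged 50 or more normalized reads in each region, were *Clpx*, *Habp2* and *Lrba*. Likeness was the root mean square difference of log2 values after subtracting the WT mean of each region, over 4 libraries. It was 0.082 for *Clpx*, a subunit of a mitochondrial protease, 0.088 for *Habp2*, a plasma serine protease made by the liver, and 0.089 for *Lrba*, a protein of vesicle traffic, against a median of 0.677 over all candidates. Gene body values of *Clpx* were 10795 and 8813 in WT and 5076 and 4910 in KO.

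Among class I genes none was called in either region. *Hdac1* gene body values were 1225 and 1438 in WT and 1751 and 1435 in KO, which overlapped (log2 fold change 0.26, SE 0.13, adjusted p = 0.112). Its window held 31.0 and 37.0 normalized reads in WT and 36.1 and 47.1 in KO, again with overlap. The end of *Lck*, a kinase of lymphocytes on the same strand, lies 5631 bp upstream of *Hdac1*, and *Lck* had a gene body log2 fold change of 0.84. Whether polymerases running past its end enter the *Hdac1* values was not tested.

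*Hdac2*, the partner of *Hdac1*, had gene body values of 784 and 738 in WT and 843 and 756 in KO, the nearest to equal in the family (log2 fold change 0.07, SE 0.13, adjusted p = 0.694). Its window was far fuller than that of *Hdac1*, with 400.4 and 309 normalized reads in WT and 457 and 665 in KO (0.65, SE 0.30, adjusted p = 0.0821). The KO values were higher without passing the test, and the log2 fold change lies 0.09 above the median of active genes. The WT mean pausing index was 245 for *Hdac2* and 13.0 for *Hdac1*.

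*Hdac8* acts on the cohesin subunit SMC3. Its long gene body held 2863 and 2529 normalized reads in WT and 2124 and 1696 in KO, without overlap. The log2 fold change was -0.50 (SE 0.12, adjusted p = 0.0018), past the p threshold and short of the fold threshold. Without KO1 it was -0.67 and *Hdac8* was called down. Its window held 71.1 and 68.0 normalized reads in WT and 102 and 103 in KO (0.55, SE 0.35, adjusted p = 0.211), which is the median of active genes within 0.01. *Phka1*, whose end lies 8616 bp upstream on the same strand, had a gene body log2 fold change of -0.49.

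The class IIb genes had few gene body reads, over 16768 bp for *Hdac6* and 4398 bp for *Hdac10*. *Hdac6*, the tubulin deacetylase, had 282 and 297 normalized reads in WT and 209 and 188 in KO (log2 fold change -0.54, SE 0.17, adjusted p = 0.011), again past the p threshold and short of the fold threshold. Its window held 120 and 96.0 in WT and 128 and 162 in KO (0.42, SE 0.34, adjusted p = 0.32). *Hdac6* and *Hdac8* were the 2 members of 9 with a promoter-proximal value above WT and a gene body value below it, a pattern found in 47% of active genes. Both lie on the X chromosome, and the pools differed in *Xist*, read at 445, 1135, 688 and 196 in WT1, WT2, KO1 and KO2. The 320 active X-linked genes had a median gene body log2 fold change of -0.05 with 9.38% called down, against -0.09 and 11.5% for autosomal genes.

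*Hdac10*, which deacetylates polyamines, was the only member called in the promoter-proximal region (9 tested, 1 up and 0 down, while 25.8% of active genes were called up and 2.2% down). Its window held 26.4 and 20.0 normalized reads in WT and 47.7 and 51.6 in KO (log2 fold change 1.08, SE 0.40, adjusted p = 0.0311), exceeding the median of active genes by 0.52. The KO values were both higher, but they rest on 20 to 45 raw reads per library. The call was lost with DESeq2 (adjusted p = 0.097), with the replicate number as a block (0.0737), under scaling within the region (log2 fold change 0.52, adjusted p = 0.344), and when any 1 library was left out (0.89 to 1.27). Gene body values were 165 and 196 in WT and 192 and 199 in KO, with overlap (log2 fold change 0.12, SE 0.18, adjusted p = 0.635). The end of *Mapk12* lies only 1884 bp upstream on the same strand, and its gene body values were 132 and 142 in WT and 329 and 290.0 in KO. Its part in the *Hdac10* window was not tested.

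**Figure D3:**
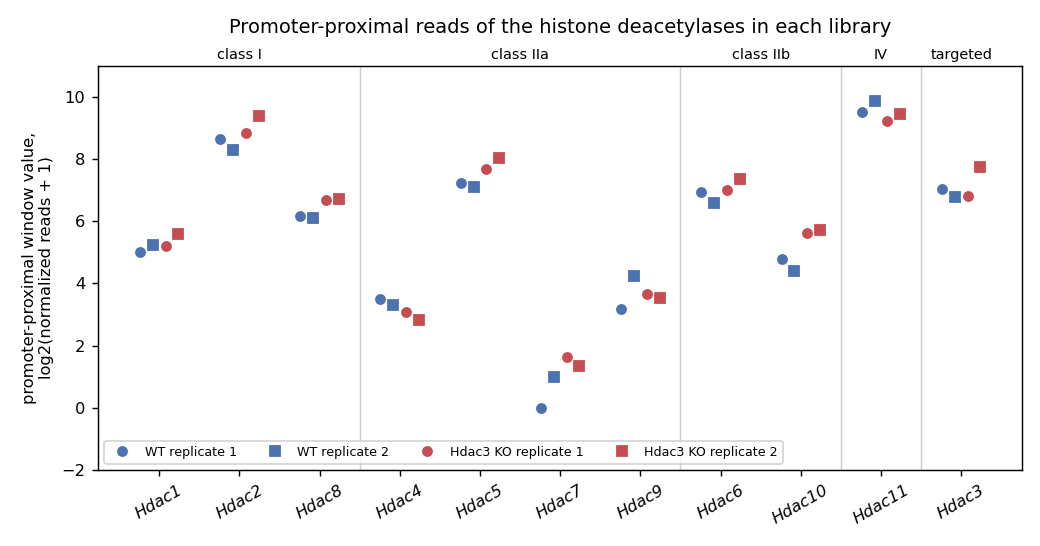
Promoter-proximal values, as log2(normalized reads + 1) in the 50 bp window, of the 10 deacetylase genes and *Hdac3* in the 2 WT (blue) and 2 *Hdac3* KO (red) libraries, circles for replicate 1 and squares for replicate 2. *Hdac11* and *Hdac2* stand highest and *Hdac7*, *Hdac4* and *Hdac9* lowest. *Hdac11* is among the few genes lower in both KO libraries.

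Over the 9 genes with a promoter-proximal fold, the median was 0.42 beside 0.56 for active genes. Values did not overlap for 5 genes that were higher and 2 that were lower in KO, where 61.9% of active genes were higher and 6.72% lower. For the pausing index limma called 0 of 9 genes in either direction, while 11.2% of active genes were called up and 0.543% down. At an unadjusted p under 0.05 in limma there were 3 of the 9, beside 34.9% of active genes, which is close to the background. The 3 genes were *Hdac8* (114 in WT and 239 in KO, log2 fold change 1.06, adjusted p = 0.0741), *Hdac6* (126 and 248, 0.97, adjusted p = 0.0645) and *Hdac10* (11.5 and 22.3, 0.96, adjusted p = 0.0721). Each lay 0.35 to 0.45 above the median of active genes and in each both KO libraries exceeded both WT libraries, as in 62.5% of active genes. *Hdac11* had indices of 176 and 239 in WT and 285 and 343 in KO, a log2 fold change of 0.61 that equals the median of active genes.

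**Figure D4:**
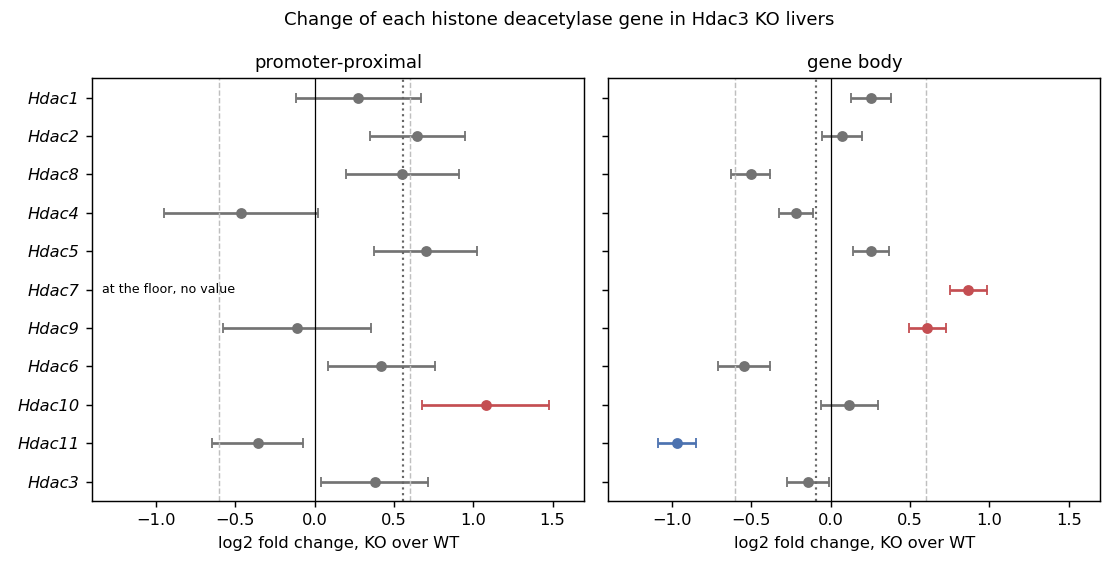
Log2 fold change, KO over WT, of each gene in the promoter-proximal region and the gene body, with bars of 1 SE from limma. Dotted lines are the medians of active genes (0.56 and -0.09), dashed lines the fold threshold of 0.6, and red and blue points genes called up and down. *Hdac7*, *Hdac9* and *Hdac11* are called in the gene body and *Hdac10* in the promoter-proximal region, while most promoter-proximal bars include the dotted line.

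The genes that work with these enzymes were read in the same fits. None of the 18 Sin3, 12 active NuRD and 9 CoREST genes was called in gene bodies by limma, edgeR or DESeq2. In limma 6, 3 and 1 had an unadjusted p under 0.05, and the medians of the lists were -0.09, -0.01 and -0.05. Under median-of-ratios scaling 1 Sin3 gene was called up in gene bodies, and no NuRD or CoREST gene was. In the promoter-proximal region 4 Sin3 genes, 1 NuRD gene and 2 CoREST genes were called up, and no gene of the 3 lists was called down. Of all active genes 25.8% were called up there and 2.2% down, so these counts do not exceed the background. The Sin3 genes were *Brms1*, *Sap130*, *Arid4a* and *Sap30*, with log2 fold changes of 0.71 to 1.03, and all 4 lost the call under scaling within the region and when any 1 library was left out. The NuRD gene was *Cdk2ap1*, at 8.03 and 8 normalized reads in WT and 26.5 and 16.7 in KO, named after its values were seen. *Hmg20b*, a subunit of CoREST, rose from 224 and 167 to 382 and 404 (1.02, adjusted p = 0.0084). The *Hmg20b* call was lost under scaling within the region and without a filter on activity.

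MiDAC is the complex of HDAC1 and HDAC2 found in dividing cells and embryos. Of its genes *Trerf1* and *Dnttip1* were active, *Zfp541* was not, and *Elmsan1* was not used here. *Trerf1* rose in the gene body from 2432 and 3009 to 5724 and 5366 normalized reads (log2 fold change 1.03, SE 0.12, adjusted p = 1.59e-07) and in its window from 21.8 and 24.0 to 97.6 and 80.5 (1.91, adjusted p = 3.56e-05). *Dnttip1* was called in the window alone (0.83, adjusted p = 0.0391). That call was lost under scaling within the region or from gene bodies, with the replicate block and without a filter on activity. The gene body call of *Trerf1* was lost in 1 of 16 alternatives, the one without a filter on activity. The 10 cycling markers gave 0 gene body calls by limma, edgeR and DESeq2, with 2 at an unadjusted p under 0.05 in limma, and a median of -0.21.

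Partners of class IIa enzymes, the *Mef2* genes and the *Ywha* genes whose products hold the phosphorylated enzymes in the cytoplasm, gave 0 gene body calls of 9 by limma, edgeR and DESeq2, with 1 at an unadjusted p under 0.05. *Mef2c* and *Ywhaz* are not among these 9, because their counted windows held 0 reads. *Mef2c* had gene body values of 2440 and 2290 in WT and 4733 and 4225 in KO, and without a filter on activity 1 of 11 partners was called up. In the promoter-proximal region, where 25.8% of active genes were called up, *Ywhae* and *Ywhah* were called up (0.91 and 0.82). Both calls were lost under scaling within the region, with the replicate block and without a filter on activity. Of 9 active genes for kinases linked to the phosphorylation of class IIa enzymes, 1 was called up and 1 down in gene bodies. The shares of active genes there were 10.4% up and 11.4% down. In the promoter-proximal region 2 of the 9 were called up, beside 25.8% of active genes. *Prkd1* and *Camk4* are not among the 9, because they were not active. Gene body values of *Prkd1* were 66.5 and 82 in WT and 198 and 191 in KO. Those of *Camk4* were 135 and 104 in WT and 281 and 219 in KO. Without a filter on activity 0 of 11 kinase genes were called in gene bodies. *Prkd2*, a protein kinase D, rose in the gene body from 1891 and 2171 to 3634 and 3545 (0.82, SE 0.11, adjusted p = 2.16e-06), and in its window from 472 and 399 to 947 and 999 (1.16, adjusted p = 0.0011). The window call of *Prkd2* was lost under scaling within the region, without a filter on activity, and without WT2 or KO2. *Sik1*, a salt-inducible kinase, was called down on values of 2467 and 6003 in WT and 2257 and 2097 in KO (-0.82, adjusted p = 0.0042). Only WT2 stood apart for *Sik1*, and without it the log2 fold change was -0.18 and the call was lost.

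The sirtuins, which deacetylate with NAD in place of zinc, gave 1 call of 7 in gene bodies, a call down, where 11.4% of active genes were called down. *Sirt3*, the main deacetylase of mitochondria, fell from 2763 and 2323 to 1196 and 1260 normalized reads (log2 fold change -1.04, SE 0.12, adjusted p = 1.60e-07). Its window held 195 and 139 in WT and 280.1 and 342 in KO (0.91, adjusted p = 0.0223), against a median of 0.56 for active genes. That window call was lost under scaling within the region, with the replicate block, without a filter on activity, and without WT1, WT2 or KO2. The remaining sirtuins had gene body log2 fold changes between -0.24 and 0.10 and no call.

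**Figure D5:**
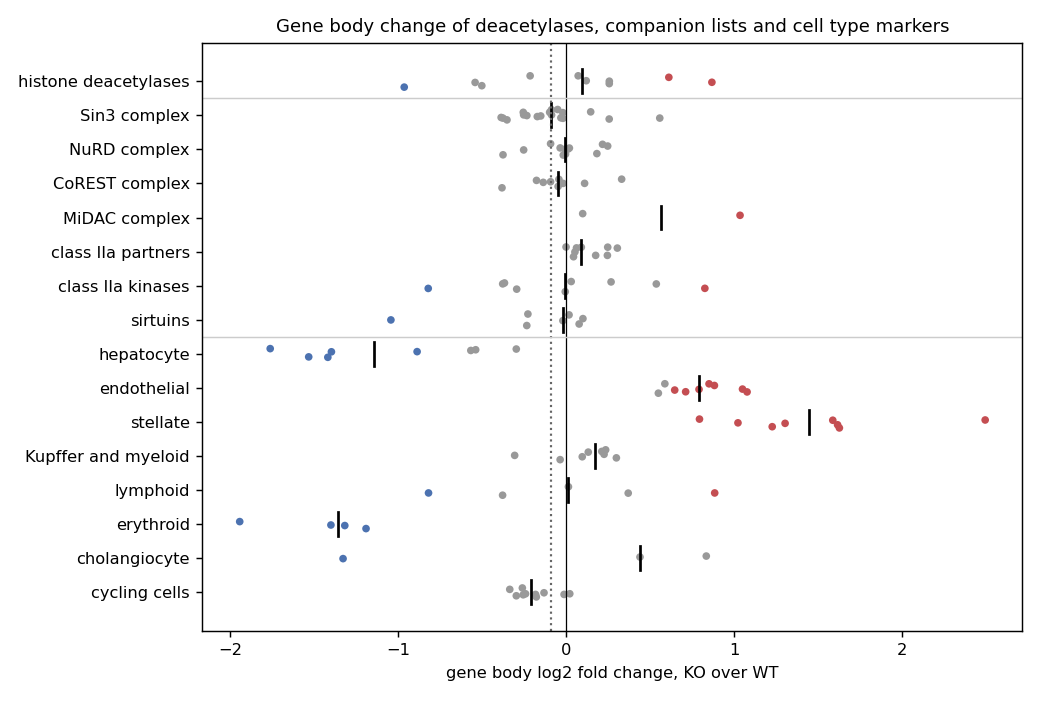
Gene body log2 fold change, KO over WT, of each active gene of the deacetylase family, of 7 companion lists and of 8 cell type marker lists, 1 point per gene, red if called up and blue if called down. Short black lines are list medians and the dotted line is the median of active genes (-0.09). No gene of the HDAC1 and HDAC2 complexes other than *Trerf1* was called, and the endothelial, stellate, hepatocyte and erythroid markers stand apart from it.

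The enhancer list, called by the authors on reads pooled over all libraries, holds 2282 intergenic enhancers and no value per library. *Hdac9* was the closest gene of 1 of them, at chr12:34707442-34715369, and no other member was closest to any. This enhancer spans 7927 bp, has no FANTOM5 entry, and its center lies 185 kb upstream of the counted *Hdac9* start, inside the wider RefSeq span of the gene between its far upstream start and the counted one. The list places no enhancer within 50 kb of a member. Chromosome contacts recorded in 4DGenome tie enhancers to 9 of the 10 members, most often *Hdac4* (8 enhancers), followed by *Hdac1* and *Hdac7* (5 each), with 1 for *Hdac6* and 0 for *Hdac10*. These counts include contacts with other chromosomes. On the chromosome of the gene itself the list ties 6 enhancers to *Hdac4*, 4 each to *Hdac7* and *Hdac9* and 3 to *Hdac1*, and 0 to *Hdac2*, *Hdac5* and *Hdac6*. Since the list is pooled, it does not tell whether these enhancers differed between genotypes.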

How the data were processed

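Nuclei of WT and *Hdac3* KO livers were subjected to PRO-seq, with 2 libraries per genotype, grouped by their titles. Per the labels and the methods, the authors trimmed reads with cutadapt and used Bowtie2 for alignment to mm10. Ribosomal reads and those with a mapping quality under 10 were left out, and the rest were counted with NRSA over 20820 RefSeq transcripts on the coding strand. The deposited signal values are counts multiplied by 1 factor per library, and for WT2, whose factor is 1, the deposited values are the read counts themselves. Dividing by these factors gave whole reads for 100% of 41640 values per library (tolerance 0.01). The deposited enhancer list was made by the authors from pooled reads. It gives positions and gene names, with no signal per library. Counting error alone was not used as an interval, since PCR copies are not independent.

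Per symbol, the transcript with the largest promoter-proximal mean was kept (118 of 20642 symbols had several). Active genes (12705) were tested with limma 3.58.1 (trend) on log2(value + 1) with genotype as the only term, in R 4.3.3, and p-values were adjusted by Benjamini and Hochberg. Fold changes are on this log2(value + 1) scale and understate changes of low genes. edgeR 4.0.16 and DESeq2 1.42.0 were run on the recovered reads as alternatives. The limma test was tried on simulated data, and the other steps were not. Starts were matched to GENCODE M21 transcripts by gene body length.

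The members and gene lists were chosen with earlier results of these data known. Named genes were all members and *Hdac3*, up to 4 genes per companion list with the smallest adjusted p among called genes with separate groups and 50 or more normalized reads on average, and the 3 genes most like *Hdac11*. A companion gene that this rule names is not reported here. *Elmsan1*, *Adgre1* and *Epb42* were not used here. Same-numbered libraries were not stated to be pairs.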

Additional observations from a re-analysis of the deposited data

How the results depend on the processing

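Gene body calls held best: that of *Hdac11* was made in each of 17 alternatives, and those of *Hdac7* and *Hdac9* under other pseudocounts, scalings, edgeR, DESeq2 and the replicate block. Without a filter on activity 1.97% of 20642 genes were called up in gene bodies and 2.85% down, and 0 in the promoter-proximal region. With single libraries left out the gene body log2 fold change was 0.70 to 1.04 for *Hdac7* and 0.47 to 0.75 for *Hdac9*. The count of members called up in gene bodies was 0 without that filter. It was 1 when genes had to be active in every library (*Hdac7* was then not tested). The count called down was 3 without a fold threshold, which adds *Hdac6* and *Hdac8* (22.1% of active genes then fell, in place of 11.4%), and 1 to 2 with single libraries left out. In the promoter-proximal region the count called up was 0 without the activity filter, under median-of-ratios or TMM scaling within the region, and with DESeq2, and 0 to 1 with single libraries left out (*Hdac2* in place of *Hdac10* without KO1). The count called down was 1 under both within-region scalings (*Hdac11*). These scalings bring the median of active genes from 0.56 to near 0 and turn the sign of *Hdac1* (-0.28 in both), *Hdac8* (-0.011 in both) and *Hdac6* (-0.14 and -0.15). The pausing index count was 2 with a pseudocount of 10 (*Hdac6*, *Hdac8*). The share of active genes at that setting was not counted, so this count has no background beside it. With single libraries left out the pausing index log2 fold change was 0.72 to 1.21 for *Hdac6* and 0.88 to 1.23 for *Hdac8*. Its sign turned under within-region scaling for *Hdac1* (-0.62 in both), *Hdac2* (-0.075 and -0.073), *Hdac5* (-0.21 and -0.20) and *Hdac11* (-0.043 and -0.042), and for *Hdac1* also with a pseudocount of 10 (-0.030) and without KO2 (-0.31, the leave-one-out values reaching 0.35). Leaving out 1 library turned the sign of *Hdac9* in the promoter-proximal region (-0.65 to 0.43), and in gene bodies that of *Hdac2* (-0.0083 without KO1, up to 0.15) and *Hdac10* (-0.0043 without WT1, up to 0.24). These values did not pass the test. The cause of these changes was not tested.

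The libraries shared replicate numbers, but deviations of same-numbered libraries correlated at -0.11 in the promoter-proximal region and 0.02 in gene bodies, so the numbers were not taken as pairs. With the replicate block the count of members called up in the promoter-proximal region was 0, and 13.9% of active genes were called up in place of 25.8%. A crossed pairing (WT1 with KO2, WT2 with KO1), chosen after seeing the data, gave 3 members up in the promoter-proximal region and 3 in the pausing index, where 38.3% and 32.4% of active genes were called up. The gene body counts were the same under both blocks. Windows of *Hdac4*, *Hdac7* and *Hdac9* held 43 raw reads or fewer over all libraries, which limits what they can show.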
